A study of Mus musculus with 3 samples.

Results

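The genes described here are 10 members of the Notch pathway, chosen by name from the 32285 genes in the count tables: the receptors Notch1, Notch2 and Notch3, the ligands Dll1, Dll4, Jag1 and Jag2, and the targets Hes1, Hey1 and Heyl. All 10 were found. Notch receptors sit in the membrane of one cell and bind Delta-like or Jagged ligands on a neighbouring cell. Binding lets proteases cut the receptor, and its intracellular part enters the nucleus, where it acts with the DNA-binding protein RBPJ to switch on Hes and Hey repressors. In the embryo the pathway is known for arterial and mural cell development, for holding back the differentiation of neural progenitors, and, through Jag2, for keeping the oral surface epithelium from adhering before the palatal shelves meet.

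C57BL/6J (wt) mouse embryos gave palatal shelves for single-cell RNA sequencing on days E13.5, E14.5 and then E15.5, the days on which the shelves grow, lift and fuse. Each stage is 1 library made from the pooled shelves of 3 embryos, digested with TrypLE and fixed in methanol, so a stage has no replicate. After filtering and removal of likely doublets, 3583, 1750 and 2584 cells remained, with 1957, 1883 and 1968.5 median UMIs (unique molecule tags, each counting 1 captured RNA). Cells were assigned to classes by how many of 10 fixed marker genes of each class (8 for stratified epithelium) had a UMI, and no Notch member was a marker. The E13.5 library went against its label: 49.1% of its cells were gated as neuronal, against 6.80% and 6.04% at E14.5 and E15.5, and another 31.0% reached no gate. It held 367 mesenchymal cells, where the later libraries held 922 and 1407. Across the libraries 5 barcodes were shared. Levels below are CPM (each count scaled by the total) of the UMIs summed over the cells of a class in a library, and lines of values run from E13.5 to E15.5.

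Classes were compared with a single fit. Cells were summed into 26 units, each a class in a library with at least 10 cells, and each of 9 classes was set against the equal-weight mean of the other 8 with edgeR's quasi-likelihood test, the library as a block, and Benjamini-Hochberg adjustment over 8277 genes. Of the 10 members 7 passed the filter on low counts; Dll1, Dll4 and Heyl did not. Of the 63 pairs of a member and a class, 25 differed from the other classes at an adjusted p under 0.05, where 19.3% of all gene-class pairs did. Of these 16 were higher and 9 lower, and 5.78% of all gene-class pairs were lower. All 25 calls kept their sign under every alternative that tested them, and 8 of them stayed past the threshold in every leave-one-out fit that tested them: Notch1 in endothelial cells, Notch2 in mesenchymal and neuronal cells, Jag1 in glial and neuronal cells, Jag2 in stratified epithelium, Hes1 in neuronal cells and Hey1 in other epithelium. The other 17 lost the call without at least 1 library and are given with that value.

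**Figure D1:**
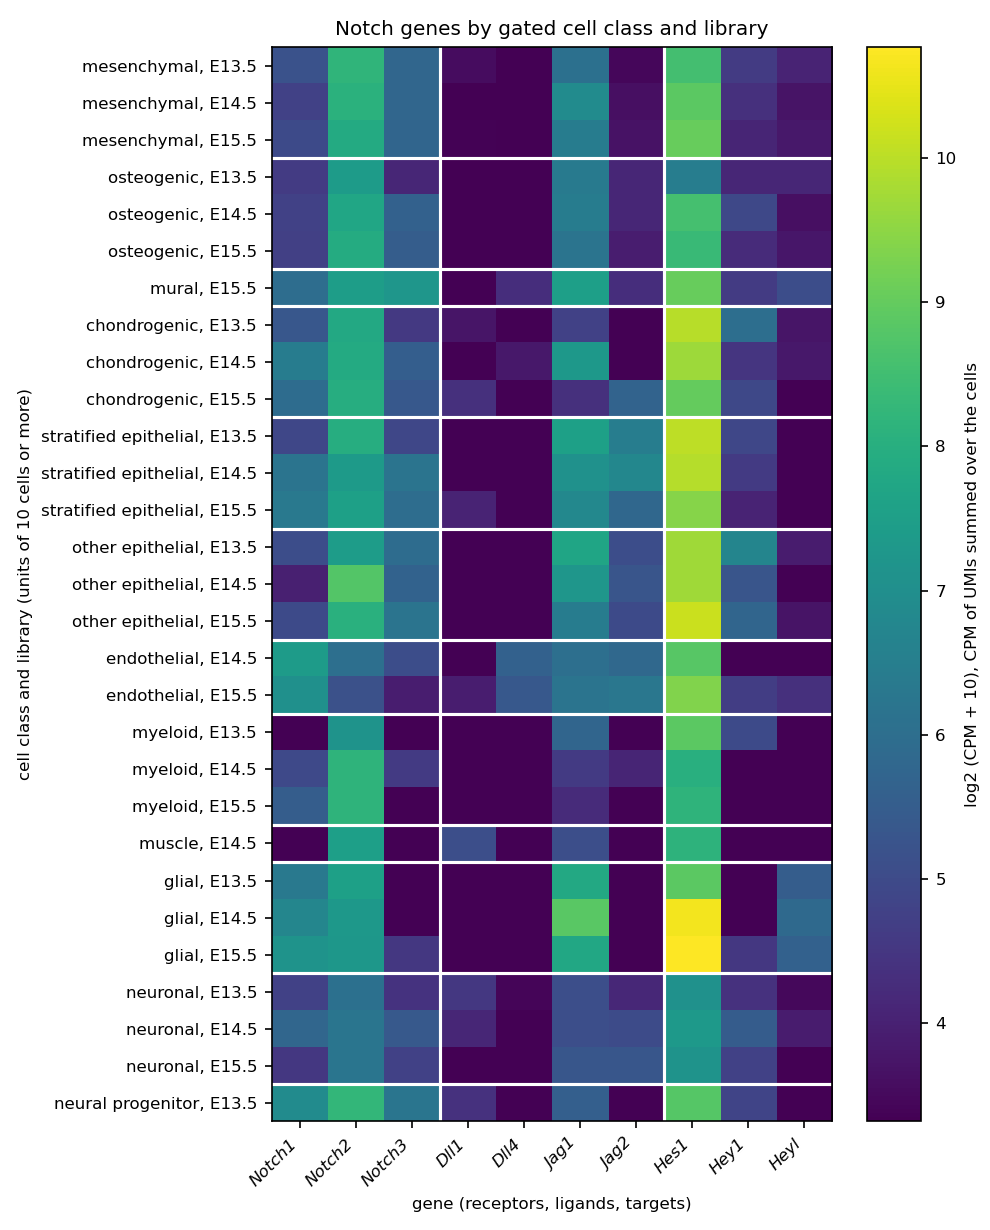
Heat map of log2 (CPM + 10) for the 10 Notch genes (columns: receptors, ligands, targets) in every class and library with at least 10 cells (rows). Notch1 and Dll4 are high in the endothelial rows, and Jag2 in the stratified epithelial and endothelial rows. Jag1 is high in the glial rows, and Hes1 in the glial rows from E14.5 on. Notch2 is at 55.4 and 25.9 CPM in the endothelial rows against 156 to 428 CPM in the mesenchymal and epithelial rows from E14.5 on.

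Notch1 (chr2:26457903-26516663, minus strand, GRCm38; 34 exons), the receptor known from arterial endothelium and neural progenitors, was highest in endothelial cells among the classes tested. It reached 158 and 124 CPM (20 and 24 UMIs) in the endothelial cells of E14.5 and E15.5, and 3 UMIs in the 7 endothelial cells of E13.5. In mesenchymal cells it was at 26.8, 17.0 and 21.6 CPM, so both endothelial units stood above all mesenchymal ones. The endothelial level was 1.97 ± 0.37 (SE) log2 units above the other classes (edgeR, adjusted p = 0.000324; background 9.57% of genes higher), and the adjusted p ran from 2.71e-05 to 0.0490 over 16 alternatives, the largest without E14.5. Glial cells came next in order, at 71.3, 97.8 and 131 CPM from 2, 6 and 10 UMIs, and the 2 classes did not differ beyond their spread (0.43 ± 0.53 log2, edgeR adjusted p = 0.717). Stratified epithelial and chondrogenic cells did not differ from endothelial cells beyond the spread either (edgeR adjusted p = 0.114 and 0.0818). The glial call itself (1.49, edgeR adjusted p = 0.0476; background 5.84%) was lost without each library, with adjusted p of 0.0560, 0.204 and 0.449, and 5 of 13 alternatives kept it. Stratified epithelium had 19.8, 63.6 and 70.7 CPM and was 0.68 log2 above the others without passing the test (edgeR adjusted p = 0.252). Osteogenic cells, with 2, 14 and 22 UMIs, were lower (-1.40, edgeR adjusted p = 0.00596; background 5.53% lower), which was lost without E14.5 (0.124), without E15.5 (0.235) and with the gate at 2 markers (-0.65, adjusted p of 1). Mesenchymal cells were lower by less (-0.88, edgeR adjusted p = 0.0310; background 3.93% lower), and 6 of 16 alternatives kept that call, with 0.484 and 0.503 without E14.5 and without E15.5. The neural progenitors, tested in no fit because only E13.5 had enough of them, held 41 Notch1 UMIs in 117 cells (111 CPM).

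Notch2 (chr3:98013527-98150361, plus strand), the receptor known from mesenchyme and bone, was high in mesenchymal and low in endothelial and neuronal cells. Mesenchymal cells carried 280, 260 and 224 CPM from 293, 566 and 799 UMIs, chondrogenic cells 214, 226 and 240 CPM and osteogenic cells 160, 201 and 232 CPM. Endothelial cells held 7 UMIs at E14.5 and 5 at E15.5 (55.4 and 25.9 CPM) and none in the 7 cells of E13.5. Neuronal cells had 57.2, 64.2 and 64.0 CPM. Most gated neurons of the later stages lay in 1 cluster, 94 of 119 and 125 of 156, with 3 and 6 Notch2 UMIs (12.8 and 17.0 CPM), and the other 25 and 31 cells held 23 and 28. The 2 low classes did not overlap with the mesenchymal units. Notch2 was higher in mesenchymal cells (0.85 ± 0.17 log2, edgeR adjusted p = 0.000451; background 15.9%) and lower in neuronal cells (-1.30 ± 0.21, edgeR adjusted p = 2.45e-05; background 10% lower). It was lower in endothelial cells (-2.35 ± 0.38, edgeR adjusted p = 4.22e-05; background 3.58% lower), a call lost without E15.5 (-1.84, adjusted p = 0.0774). Other epithelium, the epithelial cells without stratified markers, had 162, 428 and 252 CPM, with the E14.5 library standing above the rest; its call (0.95, edgeR adjusted p = 0.000804; background 14.2%) was lost without E14.5 (0.65, adjusted p = 0.160). Myeloid cells had 132, 280 and 275 CPM (0.79, edgeR adjusted p = 0.00627; background 17.9%), lost without E14.5 (0.0973) and without E15.5 (0.380). Other epithelium was the highest class, and mesenchymal, myeloid, chondrogenic, osteogenic and stratified epithelial cells did not differ from it beyond the spread (edgeR adjusted p from 0.196 to 0.978).

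Notch3 (chr17:32120820-32166852, minus strand), the receptor of pericytes and smooth muscle, was highest in mural cells. The 22 mural cells of E15.5 held 29 UMIs (139 CPM) and the 9 of E14.5 held 20 (108 CPM), while mesenchymal cells had 45, 45.5 and 43.8 CPM. Mural cells were too few for the main fit. With units of 5 cells, an alternative chosen after the data were seen, Notch3 was 2.41 ± 0.39 log2 above the other classes in mural cells (edgeR adjusted p = 7.2e-05; background 9.91%). The E14.5 mural cells were deep, with a median of 12431 UMIs and of 4 markers of another class per cell, and the part of doublets in that value was not tested. The E15.5 mural cells carried the pituitary list at 981 CPM, the epithelial list at 414, the stratified epithelial list at 341 and the myeloid list at 250 CPM, where mesenchymal cells had 8.15, 91.9, 44.7 and 48.3 CPM, beside the mural list at 1495 CPM. The part of those cells in the Notch3 level was not tested either. In the main fit Notch3 was higher in mesenchymal cells (1.33 ± 0.30, edgeR adjusted p = 0.00155), other epithelium (1.62 ± 0.39, 0.00322) and stratified epithelium (1.39 ± 0.41, 0.0242; background 8.51%), and these 3 did not differ among themselves. Without E15.5 the adjusted p were 0.0520, 0.123 and 0.355, and without E14.5 that of stratified epithelium was 0.0983. The call of stratified epithelium was kept by 6 of 16 alternatives. Myeloid cells had 2 Notch3 UMIs at E14.5 and none at the other stages (-2.32, edgeR adjusted p = 0.0359; background 32.4% in either direction), which without E15.5 was -0.79 with an adjusted p of 1, and 11 of 16 alternatives kept that call.

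The promoters of Notch3 and Dll4 are shown because these members were highest in the 2 cell types of the vessel wall, Notch3 in mural and Dll4 in endothelial cells. Each window is the 250 bases before a RefSeq start site on the gene's strand (GRCm38.p6), chr17:32166891-32167140 for Notch3 and chr2:119325534-119325783 for Dll4. Capitals mark the GC box GGGCGG, found on either strand, which binds Sp1-type factors.
Notch3: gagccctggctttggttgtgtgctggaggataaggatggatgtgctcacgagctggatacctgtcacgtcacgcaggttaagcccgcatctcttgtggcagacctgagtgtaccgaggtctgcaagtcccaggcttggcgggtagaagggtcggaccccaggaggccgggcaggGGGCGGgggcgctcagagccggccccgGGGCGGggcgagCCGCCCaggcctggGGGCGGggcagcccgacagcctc
Dll4: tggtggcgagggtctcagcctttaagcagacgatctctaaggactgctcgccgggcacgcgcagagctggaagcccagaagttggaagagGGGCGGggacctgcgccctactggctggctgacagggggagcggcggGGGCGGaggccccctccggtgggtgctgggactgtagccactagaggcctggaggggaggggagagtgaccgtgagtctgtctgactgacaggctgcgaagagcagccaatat
The Notch3 window held 4 GC boxes, starting 76, 49, 37 and 23 bases before the start site, and the Dll4 window held 2, at 160 and 113 bases. Of 32851 promoter windows of this length, 32.7% held the motif. The windows of Notch1, Notch2 and Jag2 held 5 each, and those of Dll1 and Jag1 held none. The Notch3 and Dll4 windows were 68.8% and 65.6% G or C, against a median of 52.4% over all windows. Neither window, nor any of the 8 windows listed for 7 members, held the RBPJ motif TGGGAA or the ETS motif CCGGAA on either strand, letters that 21.6% and 12.0% of all windows held. The GC box was added after the other motifs gave no match.

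Jag1 (chr2:137081456-137116644, minus strand), a ligand of wide embryonic use, was highest in glial cells. They held 214, 456 and 210 CPM from 6, 28 and 16 UMIs, above the mesenchymal levels of 57.4, 110 and 77.3 CPM at each stage. At a common depth of 1500 UMIs per cell, 2 of 8, 8 of 13 and 6 of 20 glial cells had a Jag1 UMI, against 0 of 10, 1 of 35 and 1 of 48 myeloid cells, the class taken as background (median depths before thinning 2656.5, 3333 and 2321 UMIs in glial and 1953, 2130.5 and 1672 in myeloid cells). The glial level was 2.15 ± 0.40 log2 above the other classes (edgeR adjusted p = 0.000447, from 7.18e-09 to 0.0182 over 13 alternatives, all called). Other epithelium and stratified epithelium did not differ from glial cells beyond the spread (edgeR adjusted p = 0.217 and 0.142). The glial units are small, 10, 16 and 26 cells. At E13.5 they carried the neural progenitor list at 4708 CPM beside the glial list at 2711 CPM, and at E14.5 and E15.5 the mesenchymal list at 5623 and 4127 CPM. The part of those cells in the Jag1 level was not tested. The neural progenitors of E13.5 had 37.8 CPM of Jag1.

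Epithelium also carried Jag1. Other epithelium had 200, 141 and 77.9 CPM and stratified epithelium 178, 127 and 102 CPM, and the 2 overlapped. The former passed the test (1.12 ± 0.33, edgeR adjusted p = 0.0165), lost without E13.5 (0.64, 0.180) and with no replicate block (1.07, 0.0574), and the latter did not (0.87, 0.125). Neuronal cells (24.7, 24.7 and 30.1 CPM) were lower (-1.37 ± 0.36, edgeR adjusted p = 0.00360), a call lost with the gate at 2 markers (-1.15, 0.0552) and with units of 20 cells (-0.99, 0.0657). Myeloid cells were lower too, with 2 UMIs in each library (-2.46, 0.00433; lost without E15.5, 0.0877). Chondrogenic cells had 5, 36 and 1 Jag1 UMIs. The 36 UMIs of E14.5 lay in 9 of 78 cells, and a single cell held 14 of them.

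Jag2 (chr12:112907819-112929776, minus strand) was called higher in stratified epithelium and in endothelial cells. Stratified epithelium had 79.2, 98.9 and 46.4 CPM from 4, 14 and 21 UMIs, and endothelial cells 47.5 and 67.4 CPM from 6 and 13. Mesenchymal cells held 1, 5 and 10 UMIs, which is 0.957, 2.30 and 2.81 CPM, and no mesenchymal unit overlapped with those of stratified epithelium. Glial cells held no Jag2 UMI in any library, which makes fitted folds against the mean of all other classes depend on how that 0 is handled. The fit gave 3.52 ± 0.63 log2 for stratified epithelium (edgeR adjusted p = 0.000308) and 3.06 ± 0.75 for endothelium (0.00604). Without glial cells, an alternative chosen after the data were seen, these were 2.78 (edgeR adjusted p = 0.000779) and 2.31 (0.0143), and mesenchymal cells became a call of -2.67 (0.00795). The adjusted p of stratified epithelium ran up to 0.0372 over 16 alternatives. The endothelial call was lost without E14.5 (0.0711) and without E15.5 (0.106), where a single endothelial unit remained and was assumed to vary like the others. Neuronal cells had 7.85, 22.2 and 30.1 CPM from 49, 9 and 16 UMIs. They missed the threshold (1.63 ± 0.68 log2, edgeR adjusted p = 0.0656) and did not differ from endothelial cells beyond the spread (adjusted p = 0.220). With units of 5 cells, neuronal cells (2.03, edgeR adjusted p = 0.0251) and other epithelium (2.51, 0.0213) were called as well. Mean levels in the main fit do not show such an excess. They were 20.1 CPM in neuronal cells against 22.8 CPM in the other classes, and 25.0 against 22.2 CPM for other epithelium. These fitted folds too depend on how units at 0 are handled. Other epithelium was at 23.8, 29.3 and 21.8 CPM and did not differ from stratified epithelium beyond the spread (1.33 ± 0.71 log2, edgeR adjusted p = 0.383).

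Dll4 (chr2:119325784-119335962, plus strand), the ligand of arteries and sprouting vessel tips, was sparse: 8, 8 and 9 UMIs in all cells of the 3 libraries. Endothelial cells held 5 of the 8 at E14.5 and 6 of the 9 at E15.5 (39.6 and 31.1 CPM, with counting intervals from 12.9 to 92.4 and from 11.4 to 67.7), although they were 44 of 1750 and 52 of 2584 cells. The cells gated mesenchymal held none in any library. With no filter on low counts the endothelial class was called (edgeR adjusted p = 3.41e-07), and its fitted fold is no bound because most other units were at 0. At E13.5, 5 of the 8 UMIs lay in the 1758 neuronal cells, 49.1% of that library's cells, and none in the 7 endothelial ones.

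Dll1 (chr17:15367354-15376872, minus strand), the ligand of differentiating neurons, was counted mostly at E13.5. That library held 124 Dll1 UMIs, against 5 and 10 in the later ones. Neuronal cells held 82 of the 124 (13.1 CPM), ungated cells 34 (17.9 CPM) and neural progenitors 4 (10.8 CPM). Neuronal cells also held 6243358 UMIs of all genes, where the whole library had 11472663 before filtering. The mesenchymal, osteogenic, mural and chondrogenic cells together, called the mesenchymal lineage from here on, held 3, 0 and 2 UMIs in 481, 1199 and 1760 cells. With no filter on low counts neuronal cells were called higher (edgeR adjusted p = 0.00196). In muscle cells, 9, 11 and 6 in number, 1, 1 and 2 UMIs were counted, which is 34.1, 24.8 and 110 CPM with counting intervals from 0.863 to 190, from 0.627 to 138 and from 13.3 to 396.

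Within E13.5, Dll1 and Hes1 were rarely found in the same cell. At 1500 UMIs per cell, with 1326 shallower cells left out, 42 of 2257 cells had a Dll1 UMI and 411 a Hes1 UMI, and 1 cell had both. At E14.5 both of the 2 cells with Dll1 also had Hes1, and at E15.5 2 of 3 did, too few to give a share. At E13.5 Hes1 was thus found in 2.38% of cells with Dll1 (exact 95% interval 0.0603 to 12.6) and in 18.5% of those without (16.9 to 20.2). These are cells of 1 library and the classes differ in both genes. Inside the neuronal gate the shares were 1 of 29 and 113 of 1281, and inside the ungated cells 0 of 12 and 103 of 390, with intervals that overlap. When cells were clustered, 1 cluster with 585 cells of E13.5 stayed unnamed, with neural progenitor markers at 1269 CPM and neuronal markers at 946 CPM. It held 29 Dll1 UMIs (21.7 CPM), 109 of Notch1 (81.5 CPM) and 377 of Hes1 (282 CPM). In the neuronal clusters of that library Dll1 was between 0 and 25.8 CPM and Notch1 between 3.81 and 29.7 CPM.

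Hes1 (chr16:30064384-30067796, plus strand), a repressor that many signals besides Notch can induce, had 2664, 2379 and 3860 UMIs in all. Glial cells had 464, 1597 and 1735 CPM, other epithelium 819, 827 and 1144 CPM and stratified epithelium 1030, 982 and 672 CPM. Mesenchymal cells had 365, 463 and 512 CPM. Neuronal cells were lowest in each library except for the 18 osteogenic cells of E13.5 (79.9 CPM), at 126, 153 and 132 CPM. In the cluster with most of the later neurons Hes1 was at 76.8 and 34.1 CPM (18 and 12 UMIs), and the 25 and 31 neuronal cells outside it held 44 and 58 UMIs. Hes1 was lower in neuronal cells by -1.96 ± 0.30 log2 (edgeR adjusted p = 1.16e-05). It was higher in glial cells (1.37 ± 0.27, edgeR adjusted p = 0.000778), other epithelium (1.01 ± 0.24, 0.00358) and stratified epithelium (0.81 ± 0.26, 0.0394), and lower in osteogenic cells (-1.01 ± 0.28, 0.0115). The glial call was lost without E14.5 (0.140) and without E15.5 (0.0767), that of other epithelium without E15.5 (0.0684), that of stratified epithelium without E14.5 (0.399) and that of osteogenic cells without E14.5 (0.0571). The call of stratified epithelium was also lost under DESeq2 (0.0560), with no replicate block (0.0903) and with clusters as classes (0.135), and that of osteogenic cells with units of 20 cells (-0.44, 0.194), which drops their E13.5 unit. Glial cells, both epithelia, chondrogenic cells (999, 804 and 501 CPM) and endothelial cells (444 and 653 CPM) did not differ from the glial level beyond the spread (edgeR adjusted p from 0.0685 to 0.646).

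Hey1 (chr3:8663359-8667256, minus strand), a target known from vessels, cartilage and bone, was highest in other epithelium. Other epithelium had 95.2, 29.3 and 43.6 CPM from 20, 5 and 14 UMIs, against 14.4, 10.6 and 7.02 CPM in mesenchymal cells, so these 2 classes did not overlap. Chondrogenic cells (54.3, 12.1 and 20.9 CPM) and neuronal cells (10.9, 34.6 and 16.9 CPM) did overlap with other epithelium and did not differ from it beyond the spread (edgeR adjusted p = 0.318 and 0.0560). Endothelial, glial and stratified epithelial cells did not differ from it either (0.0941, 0.0894 and 0.105). The difference from the other classes was 2.37 ± 0.51 log2 (edgeR adjusted p = 0.00122, up to 0.0258 over 15 alternatives; without E13.5 Hey1 did not pass the filter and was not tested). At E15.5 this class also carried the pituitary list at 1972 CPM, against 14.3 and 152 CPM before, and the part of those cells in its Hey1 level was not tested. Endothelial cells held 0, 0 and 3 Hey1 UMIs, which was not separable from the other classes (edgeR adjusted p = 0.998). Heyl (chr4:123233556-123249875, plus strand), a target known from smooth muscle, had 24, 24 and 31 UMIs in all. Mural cells held 6 of the 24 at E14.5 and 5 of the 31 at E15.5 (32.5 and 24 CPM). Glial cells held 1, 3 and 3 (35.7, 48.9 and 39.4 CPM), and with no filter on low counts the glial class was called (edgeR adjusted p = 0.000765). Mesenchymal cells were at 6.70, 3.21 and 3.93 CPM.

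**Figure D2:**
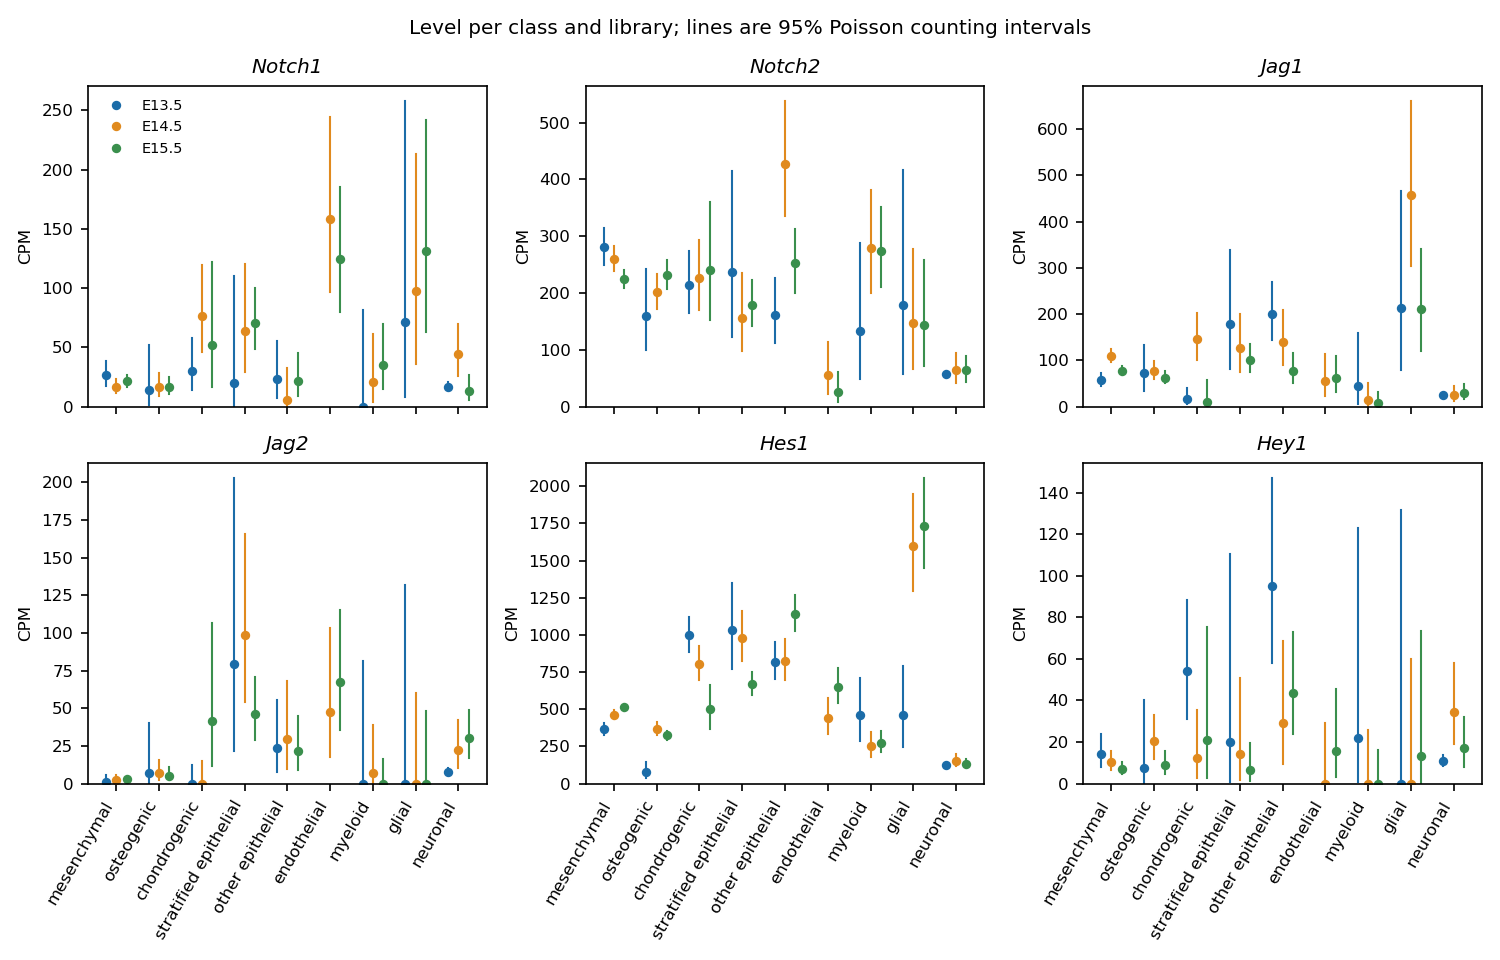
Level in CPM (y axis, from 0) of 6 Notch genes in the 9 tested classes (x axis), 1 point per library with its 95% Poisson counting interval. Endothelial cells are high for Notch1 and Jag2 and low for Notch2, glial cells are high for Jag1 and for Hes1 from E14.5 on, and the neuronal points are low for Notch2 and Hes1.

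In each member's order of the 9 classes no step between neighbouring classes passed the test. Over 56 such steps the lowest edgeR adjusted p was 0.0644, for Notch2. The orders above therefore separate the ends and not each class from the next.

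Cells with at least 1 UMI of a role were counted at 1500 UMIs per cell. No class was taken as background for receptors, and myeloid cells had a receptor UMI in 2 of 10, 14 of 35 and 19 of 48 cells. A receptor UMI was found in 39.0%, 32.3% and 32.5% of mesenchymal cells, and a ligand UMI in 5.41%, 11.0% and 10.7%. Stratified epithelium had a ligand UMI in 4 of 12, 11 of 37 and 19 of 92 cells, and glial cells in 8 of 13 and 6 of 20 at E14.5 and E15.5. Myeloid cells, the background for ligands, had one in 0 of 10, 1 of 35 and 1 of 48. Neuronal cells had a receptor UMI in 9.01%, 13.4% and 4.55% of cells, the lowest share of any class at each stage, while 43 of 99 neural progenitors of E13.5 had one.

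**Figure D3:**
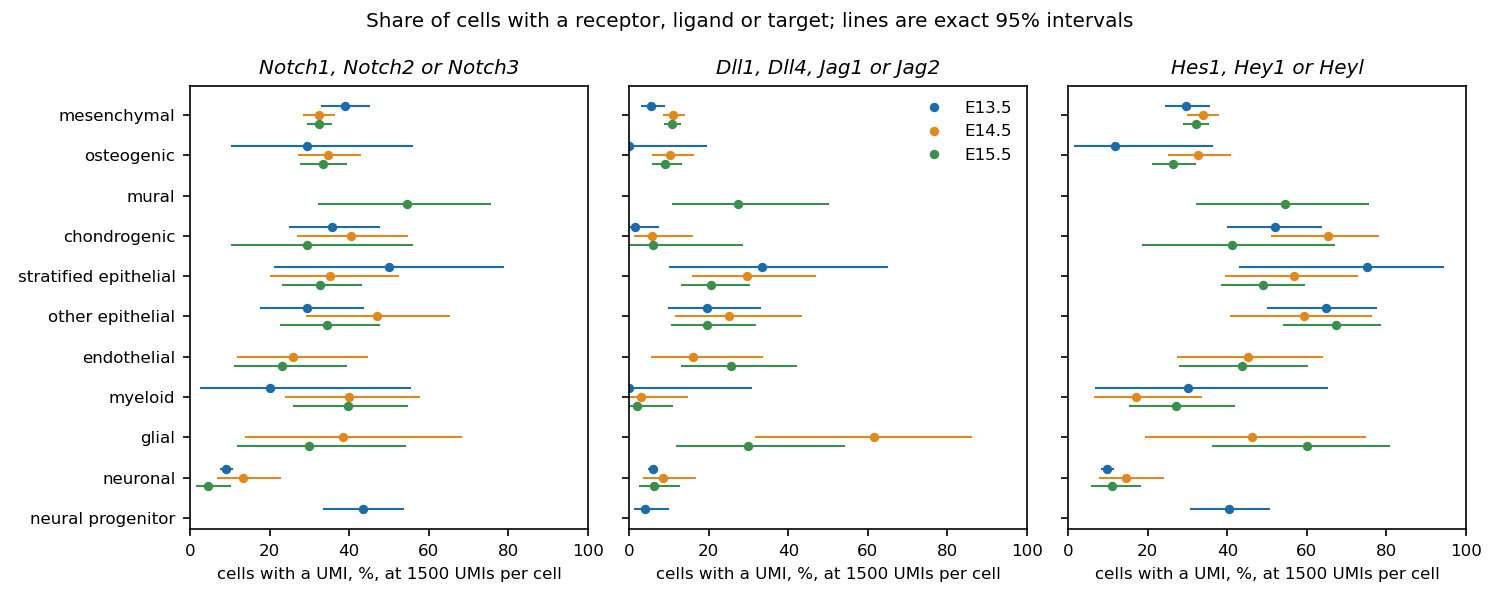
Share of cells (x axis, percent) with at least 1 UMI of a receptor, a ligand or a target after thinning every cell to 1500 UMIs, by class (y axis) and library, with exact 95% intervals. Units with under 10 cells of that depth are not drawn. Ligand shares are near 0 to 3% in myeloid cells and highest in glial cells at E14.5 (8 of 13), while receptor shares lie between 20% and 55% in most classes and under 15% in neuronal cells.

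A list of 36 other genes of the pathway was measured beside the members, and 25 passed the filter. Per class, between 1 and 6 of the 25 were higher, where 5.84% to 24.5% of all genes were, and between 0 and 4 lower, where 5.78% of all gene-class pairs were. In endothelial cells 5 were higher (9.57% of all genes) and none lower (3.58%), led by the endothelial receptor Notch4 (5.71 log2, edgeR adjusted p = 3.82e-05), the fringe glycosyltransferase Mfng, which changes the ligand preference of receptors (4.51, 1.62e-05), and the coactivator Maml2 (1.18, 0.00128). Notch4 held 9 and 4 UMIs in the endothelial cells of E14.5 and E15.5, and Mfng 6 and 17. In glial cells 3 were higher (5.84% of all genes): the target Hey2 with 1, 6 and 5 UMIs (5.02, edgeR adjusted p = 0.00029), Notch4 with 2, 0 and 1 UMIs (4.01, 0.0486), and the endocytic inhibitor Numb (1.30, 0.000181). The glial cells thus held UMIs of Jag1, Hes1, Hey2 and Heyl and none of Jag2 or Dll4 in any library. Folds of such sparse genes depend on how units at 0 are handled and are no bound.

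In neuronal cells 6 of the 25 were higher, a share near that of all genes, and none lower, led by the neuronal non-canonical ligand Dner (4.22, edgeR adjusted p = 1.5e-07; background 24.5%), the Hes1 antagonist Hes6 (2.91, 1.42e-06) and Mfng (2.63, 0.000792). Hes6 was also the largest change in other epithelium (3.28, edgeR adjusted p = 3.78e-06), followed by the secretase subunit Psenen (0.87, 0.00205), with the coactivator Maml3 lower (-0.86, 0.0218; background 6.26% lower). In stratified epithelium Hes6 was the 1 higher gene (1.99, edgeR adjusted p = 0.0217) and Dlk1, a ligand-like protein without the usual receptor-activating domain, the 1 lower (-3.19, 0.00489; background 4.57% lower). Dlk1 led the mesenchymal classes, at 2.32 in mesenchymal (edgeR adjusted p = 1.45e-06), 2.46 in chondrogenic (1.95e-05; background 9.1%) and 1.21 in osteogenic cells (0.0149). Numbl followed it in all 3, at 1.29, 1.48 and 1.16 (edgeR adjusted p = 0.00167, 0.0206 and 0.0116), and the third were the ring-finger gene Dtx3 (1.02, 0.00775) in mesenchymal cells, Maml2 (0.72, 0.0330) in chondrogenic cells and the fucosyltransferase Pofut1 (0.92, 0.0378) in osteogenic cells. The sheddase Adam10 was lower in mesenchymal (-0.50, edgeR adjusted p = 0.0229) and osteogenic cells (-0.63, 0.0125), where Psenen (-1.06, 0.000722) and Adam17 (-0.99, 0.0115) were lower as well. Myeloid cells had 3 of the 25 higher, where 17.9% of all genes were: Adam17 (1.97, edgeR adjusted p = 1.06e-06), Rbpj (1.79, 5.91e-08) and Psenen (0.71, 0.0156). In the same cells 2 were lower, which makes 5 of 25 in either direction where 32.4% of all genes were: Numb (-1.23, 0.000595) and Maml2 (-1.11, 0.00447). The median log2 over the 25 lay between -0.28 and 0.34 in the 9 classes, beside -0.20 to 0.16 over all genes.

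For each member the 3 genes with the most similar profile were listed by Pearson correlation of log2 (CPM + 10) over the 26 units, among 7731 genes with a mean of at least 20 CPM. These are descriptions over units that share libraries and depth. Dll4 was closest to the endothelial genes Adgrf5 (0.98), Kdr (0.97) and Cd93 (0.97), of which Kdr is also one of the markers that gate the class. Most units held no Dll4 UMI, so these correlations rest largely on the endothelial units of E14.5 and E15.5. Heyl was closest to Cdh19 (0.93), a glial marker of the gate. Jag2 was closest to Susd4 (0.88), the junction gene Jup (0.86) and 2900026A02Rik (0.81), Jag1 to Nde1 (0.90), Trim59 (0.80) and Ctnna1 (0.74), and Notch3 to Zfp804b (0.85), the Hedgehog co-receptor Boc (0.83) and Egfr (0.81). Notch1 was closest to Adam10 (0.81), the sheddase that cuts Notch receptors, then Numb (0.79) and Col18a1 (0.79). Notch2 was closest to Cd63 (0.82), Hey1 to Ift74 (0.73), Hes1 to Rps27 (0.75) and Dll1 to Baz2a (0.67).

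Stages were compared in the mesenchymal lineage, with 481, 1199 and 1760 cells, and have no test because each stage is 1 library. Ratios are log2 of CPM + 1 with exact 95% intervals of the fold that cover counting error only, and a gene counted as different from 2-fold on, among genes with a mean of at least 5 CPM. Stage, library and pool of embryos cannot be told apart. Different clusters held the lineage at different stages: the mesenchymal cluster with most of it at E13.5, 244 of 481 cells, held 149 of 1199 and 178 of 1760 later, while another held none of the E13.5 library and then 111 and 319 cells of the lineage. From E13.5 to E15.5, 1 of the 7 members that passed the minimum was lower by 2-fold or more, where 4.48% of 11629 genes were, and none was higher, where 10% were. From E13.5 to E14.5 none was (11.6%), and from E14.5 to E15.5 none was (2.44%). The other 3, Dll1, Dll4 and Jag2, had at most 23 UMIs in any library of the lineage.

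Hey1 was the member past 2-fold. It had 22.3, 13.1 and 8.08 CPM from 33, 45 and 42 UMIs, lower at each later stage, and E15.5 was -1.36 log2 from E13.5 (fold 0.363, 0.225 to 0.591). Of the 33 UMIs at E13.5, 16 lay in the 95 chondrogenic cells. In the main cluster of E13.5 it had 8, 0 and 0 UMIs. In cells gated mesenchymal alone the levels were 14.4, 10.6 and 7.02 CPM and the change -0.94 (fold 0.489, 0.248 to 0.999), short of 2-fold on this scale. Jag1 was highest at E14.5, with 52.0, 104 and 76.2 CPM from 77, 356 and 396 UMIs. E14.5 was 0.98 log2 above E13.5 (fold 1.99, 1.55 to 2.59) and E15.5 was -0.44 from E14.5 (0.735, 0.636 to 0.851), and the mesenchymal gate alone gave 0.93 and -0.51. Within the main cluster of E13.5 the lineage cells had 52.0, 110 and 97.6 CPM from 29, 28 and 26 UMIs, and in the cluster with none of E13.5 the later levels were 59.6 and 42.6 CPM. Notch2 declined little, with 255, 236 and 224 CPM (E15.5 against E13.5, fold 0.880, 0.783 to 0.991). Notch1 and Notch3 had folds of 0.841 (0.580 to 1.24) and 1.22 (0.909 to 1.67) over the same span, whose intervals include 1.

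Hes1 was level over the lineage and not within it. The lineage had 464, 454 and 464 CPM from 687, 1559 and 2409 UMIs (E15.5 against E13.5, fold 1.00, 0.918 to 1.09). Cells gated mesenchymal had 365, 463 and 512 CPM (fold 1.40, 1.25 to 1.57), those of them in the main cluster of E13.5 had 379, 781 and 728 CPM (238, 141 and 170 cells), and chondrogenic cells had 999, 804 and 501 CPM (0.502, 0.362 to 0.683). Chondrogenic cells were 95 of the 481 lineage cells at E13.5 and 28 of 1760 at E15.5. The mesenchymal cells of E13.5 also carried the neuronal list at 408 CPM against 236 and 179 CPM, and the mesenchymal list at 3574 CPM against 9622 and 10852 CPM; their part in the Hes1 change was not tested.

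In the epithelium, both gates summed (69, 82 and 203 cells), Jag1 and Hey1 were lower at the later stages. Jag1 had 196, 135 and 91.8 CPM from 51, 42 and 71 UMIs (E15.5 against E13.5, fold 0.469, 0.323 to 0.686) and Hey1 80.6, 22.4 and 22 CPM from 21, 7 and 17 UMIs (0.273, 0.135 to 0.543). The share of stratified cells differed as well, from 13 of 69 at E13.5 to 127 of 203 at E15.5. Other epithelium carried the pituitary list at 14.3, 152 and 1972 CPM, and the part of those cells in these changes was not tested. At that span 9.03% of genes were lower by 2-fold or more in the epithelium, and Jag1 and Hey1 were the members among them. Notch1 was the member higher by 2-fold or more, as 20.4% of genes were, with 23.0, 32.0 and 50.4 CPM from 6, 10 and 39 UMIs (fold 2.19, with an interval that includes 1). Within other epithelium Hey1 was 95.2, 29.3 and 43.6 CPM, and within stratified epithelium Jag1 was 178, 127 and 102 CPM with counting intervals that overlap (81.5 to 338 at E13.5, 74.5 to 136 at E15.5). Hes1 was at 860, 897 and 868 CPM.

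**Figure D4:**
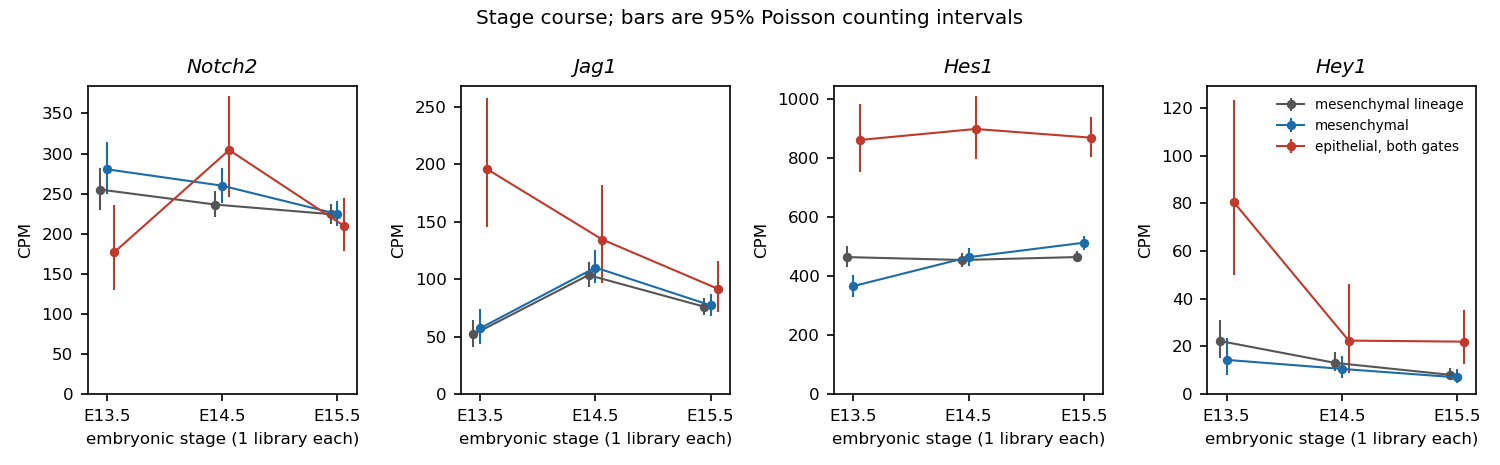
Level in CPM (y axis, from 0) of Notch2, Jag1, Hes1 and Hey1 at the 3 stages (1 library each) in the mesenchymal lineage, in cells gated mesenchymal alone and in the epithelium, with 95% Poisson counting intervals. Jag1 peaks at 104 CPM at E14.5 in the lineage and is lower at each later stage in the epithelium, Hes1 stays near 464 CPM in the lineage, and Hey1 is highest at E13.5 in each of the 3.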

How the data were processed

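Single-cell RNA libraries of mouse palatal shelves (1 per stage) were deposited as UMI counts per gene and barcode; per the submitters' processing notes they were made with Cell Ranger 6.1.2 on mm10. The authors' deposited counts were used unnormalized. Barcodes numbered 4236, 2079 and 3113, with 11472663, 5293977 and 8313677 UMIs. Cells with at least 500 genes and at most 20% mitochondrial UMIs were kept, and the highest scrublet scores were left out at 0.8% per 1000 filtered barcodes (109, 25 and 56), because the automatic threshold called 0, 3 and 2.

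A cell took the class with strictly most markers detected, if at least 3 of 10; osteogenic and stratified epithelial cells needed 2 and mural cells 3 markers of their own list. Myeloid cells served as background for shares, except for Notch1, Notch2 and Hes1. Summed UMIs were tested with edgeR 4.0.16 (TMM, filterByExpr, quasi-likelihood F test, checked on simulated counts) in R 4.3.3; DESeq2 1.42.0 was an alternative. The SE of a fold was taken as the absolute log2 fold over the square root of its F value, and is approximate. Clusters were Leiden clusters (scanpy 1.11.5, igraph 0.11.9). Poisson and Clopper-Pearson 95% intervals cover counting error only. The libraries served as replicates of a class, but each is a different stage. P-values therefore measure how class differences vary between these 3 libraries, with the spread estimated over all classes together. The endothelial class had tested units at E14.5 and E15.5 only. Gene positions are from GENCODE M21 and promoters from RefSeq.

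All 10 members are named; of the other pathway genes the 3 largest changes per class and direction are named. The members and lists were chosen with earlier results of these data known.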

Additional observations from a re-analysis of the deposited data

Results flagged for a closer look

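For 2 members the stage ratio went one way in one set of cells and the other way in another, with counting intervals on opposite sides of 1. With 1 library per stage the differences were not tested, and their cause was not tested.

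From E13.5 to E15.5, Jag1 was 0.54 log2 higher in the mesenchymal lineage (fold 1.47, 1.15 to 1.90) and had a log2 ratio of -1.08 in the epithelium (fold 0.469, 0.323 to 0.686), a gap of 1.63. From E13.5 to E14.5, Hey1 was 1.58 log2 higher in neuronal cells (68 UMIs in 1758 cells and 14 in 119; fold 3.17, 1.65 to 5.70). Over the same span it had log2 ratios of -0.72 in the mesenchymal lineage and -1.80 in the epithelium, gaps of 2.30 and 3.38. The E14.5 neuronal cells carried the mesenchymal list at 1402 CPM, against 328 CPM at E13.5. They also carried the epithelial list at 573 CPM, against 121 CPM at E13.5. The neuronal cells of the 2 stages lay in different clusters: 94 of the 119 at E14.5 were in a cluster that held 37 of the 1758 at E13.5, with 11 and 2 Hey1 UMIs (46.9 and 14.9 CPM).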

How the results depend on the processing

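The number of member-class pairs called higher ran from 9 to 14 when each library was left out in turn (16 with all), and pairs called lower from 4 to 11 (9 with all). Without E14.5 or without E15.5 the endothelial class rests on 1 unit. Over the other alternatives the higher count ran from 12 to 21 and the lower count from 6, with the gate at 2 markers, to 11. Of the 25 calls, 7 held under every alternative that tested them (13 for Jag1 in glial cells, 15 for Hey1 in other epithelium, 16 for the others), and all kept their sign. Between stages, 1 member was past 2-fold from E13.5 to E15.5; with no minimum on the mean CPM there were 3, with all cells of the library 0 and with cells gated mesenchymal alone 0. Notch2 turned from -0.18 to 0.82 log2 over that span with all cells, ungated and neuronal ones included; the cause was not tested. Members under about 25 UMIs in a library (Dll1 after E13.5, Dll4, Heyl) are limited by depth.

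Leaving the library out of the model (no replicate block) gave 12 higher and 7 lower pairs; the block pairs the classes of 1 library. No paired analysis was possible between stages because each stage is 1 library.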
